A study of Mus musculus with 12 samples.

Results

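The solute carriers are the genes whose symbol in the probe table begins with Slc followed by a digit. Their expression was followed in 12 samples of mouse epiblast, which also gave signal for visceral endoderm genes. The table named 332 solute carrier genes in 51 subfamilies, the subfamily being the number after Slc. Of these, 197 genes (59.3%) in 48 subfamilies had a probe that 3 or more of the 12 arrays detected (detection p-value under 0.05) and were compared. Among all 19554 named genes the share compared was 56.9%, or 11124 genes. Each gene is represented by its detected probe of highest mean, and 48 of the 197 had further detected probes. A single gene with such a symbol is not analysed here.

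The epiblast is the layer of the gastrulating embryo from which the body is built. Embryos were collected at E7.75 and cut along the anteroposterior axis, giving anterior tissue, where the head forms, and posterior tissue, which holds the primitive streak. Both regions came from Dkk+/+ embryos (control) and Dkk-/- embryos (knockout), with 3 Illumina bead arrays in each of the 4 groups and no further treatment named in the labels. The sample codes name Dkk1, a secreted inhibitor of Wnt signalling, and the strain background, the sex of the embryos and any pooling are not stated in the labels.

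Solute carriers are membrane proteins that move sugars, amino acids, ions, metals, nucleotides and vitamins across the cell surface or between compartments. Most use an ion gradient or exchange one solute for another, and substrate usually follows the subfamily number, although some symbols name partner or scaffold proteins. In the early embryo glucose uptake, lactate export, folate supply and amino acid uptake are among the functions they are known for, and much of the supply passes through the visceral endoderm that encloses the epiblast.

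The mean signal per array lay between 301 and 693, except in knockout posterior replicate 2, where it was 189. That array detected 155 of the 197 solute carriers (78.7%), against 160 to 182 on the other arrays. It also held the lowest of the 12 values for 41 of the 197 genes, while no other array held the lowest value for more than 23. The same array held the highest value for 31 genes, against at most 34 on another array, so its values were extreme in both directions. Levels below are log2 normalized intensities, and a change is a difference of 2 such levels with its standard error (SE). The median standard deviation (SD) of a solute carrier within a group was 0.18 for control and 0.19 for knockout tissue in the anterior, and 0.17 for control and 0.23 for knockout tissue in the posterior. A gene passed the test when its limma p-value, adjusted over all 11124 genes, was under 0.05. The Dkk1 probe did not separate the anterior genotypes: it read 6.10, 5.78 and 6.06 in control anterior and 5.999, 6.27 and 6.17 in knockout anterior arrays, and 5.05, 5.12 and 4.64 in control posterior against 4.74, 4.31 and 4.46 in knockout posterior arrays. No source places that probe relative to the deleted part, so it does not check the genotype labels, and "knockout" below means the arrays labelled so. Other genes did differ between the labels: in anterior tissue the forebrain factor Lhx5 changed by -1.21 (adjusted p = 0.013), the neural factors Pou3f1 by -1.09 (0.017) and Sox2 by -1.44 (0.045), and the paraxial mesoderm factor Tbx6 by 1.36 (0.0045) in knockout against control arrays. Anterior markers were lower in posterior than in anterior control arrays for 5 of 5 tested genes, and posterior and streak markers were higher for 5 of 5, as the region labels state.

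Promoters are shown for 4 genes that the results below turn on: Slc38a8 and Slc35d3, with the largest rise and the largest fall along the axis among solute carriers that passed in both genotypes, and Slc1a3 and Slc16a3, the genes lower in knockout arrays. Each line gives the 250 bases before the annotated start from RefSeq (GRCm38.p6), 5′ to 3′ on the gene's own strand, and capitals mark the letters ACGTG or their reverse complement, the core of the hypoxia response element. The windows are chr8:119501699-119501948 (minus strand) for Slc38a8, chr10:19851460-19851709 (minus) for Slc35d3, chr15:8710808-8711057 (minus) for Slc1a3 and chr11:120948817-120949066 (plus) for Slc16a3.
Slc38a8: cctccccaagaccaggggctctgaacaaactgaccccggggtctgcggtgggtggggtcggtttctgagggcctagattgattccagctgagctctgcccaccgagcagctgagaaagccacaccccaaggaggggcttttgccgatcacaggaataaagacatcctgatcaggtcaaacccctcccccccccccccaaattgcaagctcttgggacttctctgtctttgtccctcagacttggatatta
Slc35d3: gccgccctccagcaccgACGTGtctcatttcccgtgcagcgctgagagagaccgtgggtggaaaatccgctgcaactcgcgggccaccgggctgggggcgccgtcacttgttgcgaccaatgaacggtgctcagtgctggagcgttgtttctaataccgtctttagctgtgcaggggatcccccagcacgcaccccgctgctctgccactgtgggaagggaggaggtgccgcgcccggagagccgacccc
Slc1a3: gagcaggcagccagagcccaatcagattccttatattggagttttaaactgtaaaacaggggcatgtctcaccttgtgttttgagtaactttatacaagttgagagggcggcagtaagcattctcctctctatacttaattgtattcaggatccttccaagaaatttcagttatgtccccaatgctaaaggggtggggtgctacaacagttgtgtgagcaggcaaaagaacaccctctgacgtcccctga
Slc16a3: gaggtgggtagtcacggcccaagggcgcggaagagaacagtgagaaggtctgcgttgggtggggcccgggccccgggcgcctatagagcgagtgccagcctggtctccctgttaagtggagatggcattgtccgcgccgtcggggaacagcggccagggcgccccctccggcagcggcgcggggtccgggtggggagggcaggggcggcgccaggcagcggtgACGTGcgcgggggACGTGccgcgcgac

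Searched on both strands, ACGTG, which is also part of the E-box CACGTG, occurred in Slc16a3 at positions -27 and -14 from the start and in Slc35d3 at position -233. The letters CTTTGAT or CTTTGAA, bound by TCF/LEF factors, the nuclear end of Wnt signalling, did not occur in these 4 windows. Among 32851 promoters of this length 16.6% held ACGTG and 7.48% held CTTTGAT or CTTTGAA. Of 215 promoters of 159 matched solute carriers, 23.7% and 8.84% did. Counted per gene with 1 or more promoters, ACGTG occurred in 18.5% of 27025 genes and in 29.6% of the 159 solute carriers. The TCF/LEF letters occurred in 8.63% and 11.9%. The solute carriers are those detected here, while the other promoters and genes were taken whether detected or not. These shares therefore do not compare like sets, and enrichment was not tested. Of the 20 genes that passed in any comparison, 17 were matched. Of these, 35.3% held ACGTG and 11.8% a TCF/LEF match. Slc16a3, Slc20a1, Slc23a3, Slc35d3, Slc38a5 and Slc6a13 held ACGTG, and Slc18b1 and Slc27a3 held a TCF/LEF match. These are matches of letters and not measured sites.

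Along the axis of control embryos, 8 solute carriers rose and 2 fell from anterior to posterior, together 5.08% of the 197 against 4.98% of all genes. The share that rose was 4.06% against 2.69% of all genes, and the share that fell 1.02% against 2.29%. In knockout embryos 5 rose (2.54% against 3.56%) and 8 fell (4.06% against 4.31%), together 6.6% against 7.87% of all genes. Both totals lay near the background, so by this count regional genes were about as frequent among solute carriers as among all genes. Slc38a8, Slc1a4, Slc23a3 and Slc22a18 rose and Slc35d3 fell in both genotypes, which is 50% of the control and 38.5% of the knockout calls. The arrays of the regions did not overlap for 47 genes in control (23.9%, against 26.7% of all genes) and 52 in knockout embryos (26.4%, against 26.1%). All 18 genes that passed in either genotype had the same sign in both. The overlap of calls and the shared signs were not counted over all genes, so neither is read as particular to solute carriers. Across the 197 genes the regional change in control and in knockout arrays, which come from different arrays of 1 platform, correlated with r = 0.69, against 0.7 over all genes. Most solute carriers varied little: the 4 group means lay within 0.5 of each other for 133 genes (67.5%, against 70.1% of all genes), and the median range was 0.38, against 0.37 over all genes.

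**Figure D1:**
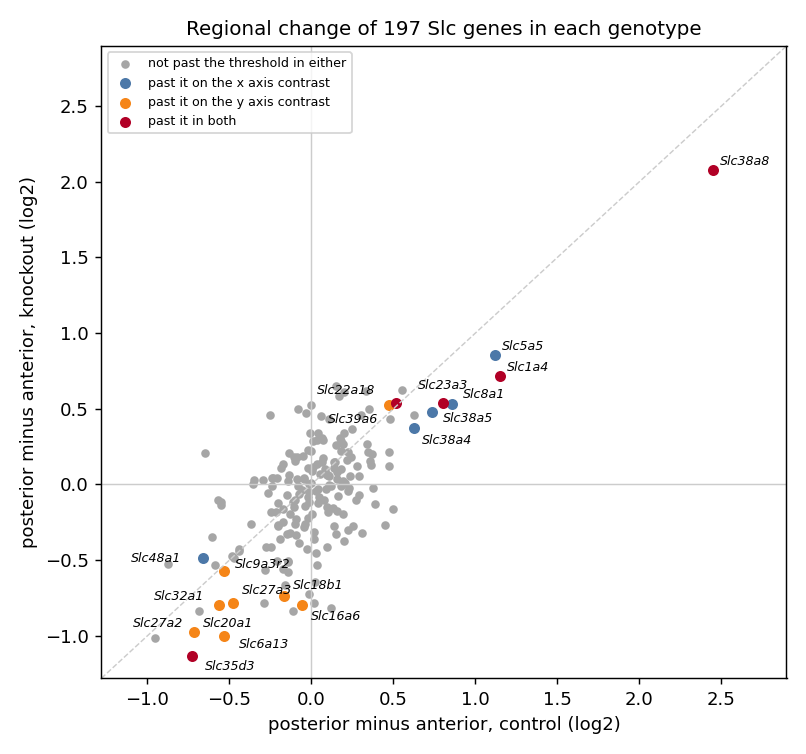
Change from anterior to posterior (log2) of 197 solute carriers in control embryos (horizontal axis) against knockout embryos (vertical axis), 1 point per gene. Coloured points passed the adjusted threshold in 1 or both genotypes and the dashed line marks equal change. Slc38a8 stands apart at 2.45 and 2.08.

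Genes for amino acid and neurotransmitter transport made up 4 of the 8 rises in control embryos, from 34 such genes tested (of all genes 2.69% rose and 2.29% fell), and none of these 34 fell there. Whether these counts differ from those of other genes was not tested. The sodium-coupled neutral amino acid family Slc38 held 3 of them. Slc38a8, a carrier of glutamine and other neutral amino acids, read 4.61, 5.75 and 5.27 in control anterior arrays, where 2 of 3 arrays detected it. The control posterior arrays read 7.34, 7.753 and 7.88. In knockout tissue the anterior arrays read 6.38, 6.56 and 5.68 and the posterior ones 7.84, 8.82 and 8.18. The regions did not overlap in either genotype. The rise was 2.45 in control (SE 0.32, adjusted p = 0.00036), or 5.45-fold with the undetected array at its measured value, and 2.08 in knockout arrays (SE 0.32, adjusted p = 0.0015), or 4.21-fold.

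Slc38a5, which exchanges glutamine and related amino acids for protons, read 6.58, 6.91 and 6.82 in control anterior and 7.46, 7.66 and 7.40 in control posterior arrays, a rise of 0.73 (SE 0.19, adjusted p = 0.041). In knockout arrays it read 6.76, 6.99 and 7.11 in the anterior and 7.66, 6.97 and 7.67 in the posterior, where the groups overlapped through posterior replicate 2 (change 0.48, adjusted p = 0.14). Slc38a4, a neutral and cationic amino acid carrier encoded by an imprinted gene, read 5.82, 5.69 and 5.75 in control anterior and 6.23, 6.42 and 6.50 in control posterior arrays, a rise of 0.63 (SE 0.15, adjusted p = 0.028). Its knockout levels were 5.98, 6.43 and 6.42 in the anterior and 6.72, 6.47 and 6.77 in the posterior (change 0.38, adjusted p = 0.15). The call of Slc38a5 in control embryos was lost on leaving out any of the 6 control arrays or knockout anterior replicate 3 (adjusted p 0.052 to 0.17). That of Slc38a4 was lost without any control anterior array or control posterior replicate 2 or 3 (0.062 to 0.11).

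The other 6 tested members of Slc38 did not pass in either genotype, with control changes of 0.27 for Slc38a1, 0.03 for Slc38a2, -0.004 for Slc38a6, -0.23 for Slc38a7, 0.16 for Slc38a9 and 0.25 for Slc38a10. Slc38a1 was detected on 5 arrays. Slc38a2, known for its response to amino acid shortage, read between 9.86 and 10.45 on all 12 arrays.

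Slc1a4 (ASCT1), which carries alanine, serine and cysteine, had the second largest rise of this group. It read 6.98, 6.87 and 6.89 in control anterior and 8.10, 8.14 and 7.95 in control posterior arrays, with no overlap. The rise was 1.15 (SE 0.16, adjusted p = 0.00053), or 2.22-fold. In knockout arrays it read 7.55, 7.76 and 7.22 in the anterior and 8.40, 7.99 and 8.30 in the posterior, a rise of 0.72 (SE 0.16, adjusted p = 0.015) that was lost without knockout anterior replicate 3 (0.06). The glutamine carrier Slc1a5 (ASCT2), detected on 9 arrays, changed by -0.26 in control (adjusted p = 0.62) and 0.46 in knockout arrays (adjusted p = 0.21), or 0.18 without knockout posterior replicate 2.

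Among the heteromeric amino acid exchangers, none passed. The heavy chain Slc3a2 had changes of -0.14 (control) and -0.58 (knockout) along the axis (adjusted p = 0.83 and 0.15), and the latter was -0.38 without knockout anterior replicate 2 and -0.37 without knockout posterior replicate 1. Its light chain Slc7a7 changed by 0.06 and 0.31, and the light chain Slc7a6 by 0.45 and -0.27 (adjusted p = 0.066 and 0.23). In knockout arrays 1 of the 34 genes of the amino acid and neurotransmitter group fell, against 4.31% of all genes. That gene, Slc6a13 (GAT2), is a carrier of GABA and taurine. It read 6.45, 6.63 and 6.73 in the anterior and 6.07, 4.82 and 5.94 in the posterior, where 2 of 3 arrays detected it. The fall was -0.999 (SE 0.27, adjusted p = 0.042). Without the low posterior replicate 2 it was -0.60 (adjusted p = 0.08), and its call was also lost without control anterior replicates 2 and 3, any control posterior or any knockout anterior array (0.053 to 0.11).

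**Figure D2:**
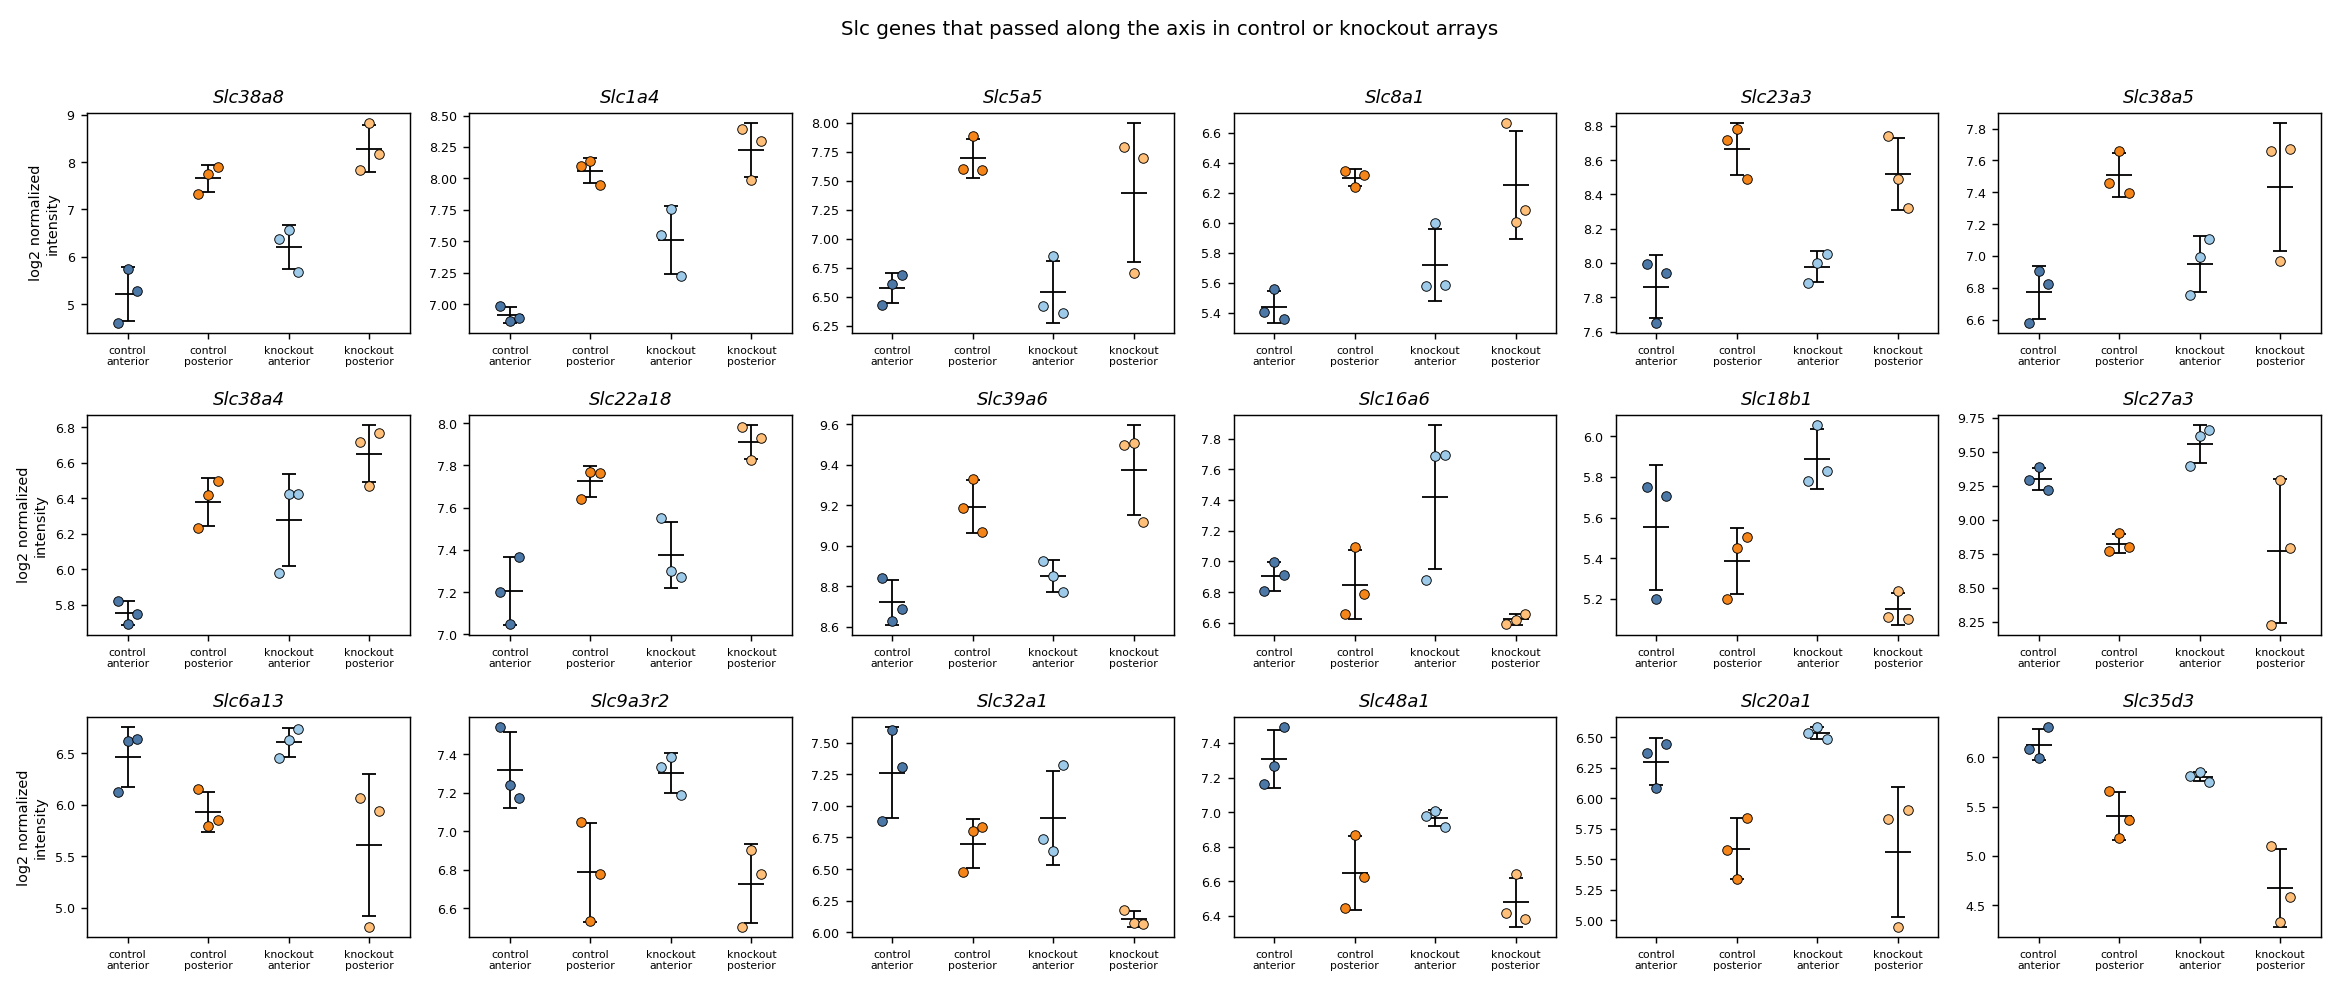
Levels (log2 normalized intensity) of the 18 solute carriers that passed along the axis in control or knockout embryos, in 12 arrays. Points are arrays, and the horizontal mark and bar are the mean and SD of 3 arrays. The panels run from the largest rise in control embryos, Slc38a8 (2.45), to the largest fall, Slc35d3 (-0.72), and the vertical scales differ.

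The other 4 rises in control embryos belonged to the subfamilies Slc5, Slc8, Slc22 and Slc23. Slc5a5, the sodium/iodide symporter best known in the thyroid, read 6.43, 6.61 and 6.68 in control anterior and 7.60, 7.88 and 7.59 in control posterior arrays, a rise of 1.12 (SE 0.24, adjusted p = 0.017). In knockout arrays it read 6.42, 6.85 and 6.36 in the anterior and 7.79, 6.70 and 7.70 in the posterior, and 0.85 did not pass (adjusted p = 0.051). A second Slc5a5 probe, detected on 3 arrays, changed by 0.48 and 0.03. Its call in control embryos was lost without control anterior replicate 1 (0.073), control anterior replicate 2 (0.054) or control posterior replicate 2 (0.087).

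Slc8a1, the sodium/calcium exchanger that later removes calcium from heart muscle cells, read 5.41, 5.56 and 5.36 in control anterior and 6.35, 6.24 and 6.32 in control posterior arrays. The rise was 0.86 (SE 0.18, adjusted p = 0.012), with no overlap between the regions. In knockout arrays the change was 0.53 (adjusted p = 0.086), from 5.58, 5.997 and 5.58 in the anterior to 6.67, 6.005 and 6.09 in the posterior. A second probe of Slc8a1, detected on 5 arrays, changed by 0.71 and 0.12. The call was lost without control anterior replicate 3 (0.054) or control posterior replicate 1 (0.051).

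Slc23a3, a relative of the ascorbic acid transporters, read 7.99, 7.65 and 7.94 in control anterior and 8.72, 8.78 and 8.49 in control posterior arrays, a rise of 0.80 (SE 0.15, adjusted p = 0.0059). In knockout arrays it rose by 0.54 (SE 0.15, adjusted p = 0.043), from 7.88, 7.998 and 8.05 to 8.74, 8.49 and 8.32. Slc22a18, an imprinted gene of the organic ion carriers, read 7.20, 7.05 and 7.37 in control anterior and 7.64, 7.77 and 7.76 in control posterior arrays, a rise of 0.52 (SE 0.13, adjusted p = 0.036). Its knockout arrays read 7.55, 7.30 and 7.27 in the anterior and 7.98, 7.82 and 7.93 in the posterior, a rise of 0.54 (SE 0.13, adjusted p = 0.025). Neither gene overlapped between the regions in either genotype. The knockout signs of both turned under median scaling over all probes, to -0.15 for Slc23a3 and -0.11 for Slc22a18, where the median of all genes was -0.52. Leaving out single arrays ended the control call of Slc22a18 for 6 arrays (control anterior 1 and 2, control posterior 1 to 3 and knockout posterior 3, adjusted p 0.053 to 0.16) and its knockout call for 4 (knockout anterior 2 and 3, knockout posterior 1 and 3, 0.059 to 0.088). The knockout call of Slc23a3 ended for 8 (control anterior 1, control posterior 1 and 2, knockout anterior 1 to 3 and knockout posterior 1 and 2, 0.052 to 0.12).

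The 2 genes that fell from anterior to posterior in control embryos carry different substrates. Slc35d3, a nucleotide sugar family member known in the mouse for its part in platelet dense granules, read 6.09, 5.997 and 6.31 in control anterior and 5.66, 5.19 and 5.37 in control posterior arrays, a change of -0.72 (SE 0.19, adjusted p = 0.043). In knockout arrays it read 5.81, 5.85 and 5.75 in the anterior and 5.10, 4.33 and 4.59 in the posterior, where 1 of 3 arrays detected it. That change was -1.13 (SE 0.19, adjusted p = 0.0029), and it passed without any 1 of the 12 arrays. It did not pass under median scaling. There it was -0.27 (adjusted p = 0.61) over probes detected on all arrays and -0.945 (0.26) over all probes. No fold is given for the knockout change, since 4.33 and 4.59 lay below the lowest signal detected on those arrays (5.13 and 4.95). The control call of Slc35d3 was lost without 8 single arrays: control anterior 1, 2 and 3, control posterior 2 and 3, knockout anterior 1 and 3, and knockout posterior 3 (0.055 to 0.18).

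Slc48a1 (HRG1), which moves heme out of endosomes and lysosomes, read 7.16, 7.27 and 7.49 in control anterior and 6.45, 6.87 and 6.62 in control posterior arrays, a change of -0.66 (SE 0.14, adjusted p = 0.016). In knockout arrays it read 6.98, 7.005 and 6.92 against 6.41, 6.64 and 6.38, and -0.49 did not pass (adjusted p = 0.055). The control call of Slc48a1 was lost without control anterior replicate 2 or 3 or control posterior replicate 1 or 3 (0.052 to 0.083). Slc27a2, a fatty acid transporter and acyl-CoA synthetase, had a larger difference and did not pass. In control tissue it read 7.22, 7.14 and 7.08 in the anterior and 5.98, 6.40 and 6.19 in the posterior. In knockout tissue it read 6.43, 6.73 and 6.31 in the anterior and 6.08, 4.50 and 5.85 in the posterior. Its control change was -0.95 (SE 0.31, adjusted p = 0.11), and without knockout posterior replicate 2, which holds the value 4.50, the same change had an adjusted p of 0.0019.

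The genes that fell in knockout embryos beside Slc35d3 and Slc6a13 were Slc20a1, Slc16a6, Slc32a1, Slc27a3, Slc18b1 and Slc9a3r2. Slc20a1, a sodium/phosphate carrier, read 6.54, 6.58 and 6.49 in knockout anterior and 5.83, 4.95 and 5.90 in knockout posterior arrays, and the change was -0.98 (SE 0.22, adjusted p = 0.019). In control arrays it read 6.37, 6.09 and 6.45 against 5.58, 5.34 and 5.84 (change -0.71, adjusted p = 0.098). The regions of Slc20a1 did not overlap in either genotype, and a second probe, detected on 4 arrays, changed by -0.35 in knockout arrays.

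Slc32a1, the vesicular carrier of the inhibitory transmitters GABA and glycine, read 6.74, 6.64 and 7.33 in knockout anterior and 6.17, 6.08 and 6.07 in knockout posterior arrays, a change of -0.80 (SE 0.21, adjusted p = 0.034). Slc18b1, a vesicular polyamine carrier, read 5.78, 6.05 and 5.83 against 5.11, 5.24 and 5.10, a change of -0.74 (SE 0.16, adjusted p = 0.015). Both belong to the 8 tested vesicular and lysosomal genes, and of all genes 4.31% fell along the knockout axis. Whether this group differs from other genes was not tested. Slc27a3, an acyl-CoA synthetase of the fatty acid transporter family, read 9.40, 9.62 and 9.66 against 8.23, 9.29 and 8.80, a change of -0.79 (SE 0.21, adjusted p = 0.037) that was -0.52 without knockout posterior replicate 1 (adjusted p = 0.076). Slc9a3r2, a scaffold protein of sodium/proton exchangers and not itself a carrier, read 7.33, 7.39 and 7.19 against 6.50, 6.90 and 6.78, a change of -0.57 (SE 0.16, adjusted p = 0.0499).

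Slc16a6, a relative of the lactate carriers, read 6.88, 7.69 and 7.69 in knockout anterior and 6.59, 6.62 and 6.66 in knockout posterior arrays, a change of -0.80 (SE 0.20, adjusted p = 0.029). Its other detected probes changed by 0.13 and 0.13, so the probes of Slc16a6 disagreed in direction and the fall rests on 1 probe. Slc39a6, a zinc importer that pairs with Slc39a10, was the knockout rise not seen among the control calls. It read 8.93, 8.85 and 8.77 in knockout anterior and 9.50, 9.51 and 9.12 in knockout posterior arrays, a rise of 0.53 (SE 0.14, adjusted p = 0.037) that became -0.20 under median scaling over all probes. Its control change was 0.47 (adjusted p = 0.075).

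All knockout calls along the axis but those of Slc38a8 and Slc35d3 were lost on leaving out at least 1 single array. Without knockout anterior replicate 2 the count fell from 13 to 5, and without knockout anterior replicate 3 to 4. Calls were lost without knockout anterior replicate 2 for Slc18b1 (0.055) and Slc20a1 (0.058), without knockout anterior replicate 3 or any knockout posterior array for Slc32a1 (0.055 to 0.12), and without knockout anterior replicate 2 or 3 or any knockout posterior array for Slc16a6 (0.06 to 0.11). For Slc27a3 this held for 10 of 12 arrays (all but control anterior 3 and knockout posterior 2, 0.0501 to 0.1), for Slc9a3r2 for 9 (all but control posterior 1 and 2 and knockout posterior 2, 0.051 to 0.14) and for Slc39a6 for 7 (control anterior 2, control posterior 1, knockout anterior 1 to 3 and knockout posterior 1 and 2, 0.055 to 0.11). The control count of 10 fell to 6 without control anterior replicate 1, 4 without control anterior 2, 5 without control anterior 3, 6 without control posterior 1, and 5 without control posterior 2 or 3.

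Markers of other tissues also differed along the axis. Visceral endoderm genes had signal in all 4 groups, with group means of 13.502 to 13.923 for Ttr and 8.118 to 8.565 for Afp. The levels of solute carriers are therefore those of the dissected tissue and not of epiblast alone. The summed linear level of 13 tested visceral endoderm genes of 14 listed ran from 75100 to 79300 in control anterior and from 62100 to 66400 in control posterior arrays, and from 71600 to 79200 and 60100 to 67200 in the knockout groups, and 2 of these genes were lower in posterior tissue in each genotype. The sums of 5 tested definitive endoderm genes of 6 listed ran from 6900 to 7480 in control anterior and 3320 to 4530 in control posterior arrays, and from 7450 to 11300 and 4630 to 5950 in the knockout groups. Of these 5 genes, 3 were lower in posterior tissue in control and 4 in knockout embryos, among them Cer1, a secreted antagonist of Nodal, BMP and Wnt signals (-3.21 and -3.35). For 7 of 9 trophoblast and extraembryonic ectoderm genes the sums were 1700 to 1880 in anterior and 7070 to 7620 in posterior control arrays, and in knockout tissue lay at 1610 to 2200 and 8150 to 8800. That list shares genes with the primitive streak, and Prl3d1 and Tpbpa were not among the genes compared. Among the shared genes is Cdx2, whose control mean was 9.32 in anterior and 12.6 in posterior tissue, so the sums do not measure trophoblast alone. Along the control axis 1 gene of the list was higher (Cdx2) and 1 lower (Elf5, -2.795, adjusted p = 0.0009). Along the knockout axis 3 were higher and 0 lower. For 5 of 7 mesoderm genes the sums were 1420 to 1660, 4170 to 4530, 1790 to 2460 and 4580 to 4930 in the same order. Their part in the changes of solute carriers was not tested, and in bulk tissue fewer cells of a type and less RNA per cell cannot be told apart. Blood and endothelium genes were present for 6 of 10 listed, with sums of 2170 to 2890, 1940 to 2600, 2790 to 4090 and 2330 to 2730 in the same order, and none of the 6 passed along the axis. Etv2, a factor of endothelial and blood precursors, had group means of 10.83 to 11.49, Tal1 6.77 to 7.18 and the embryonic globin Hbb-bh1 6.46 to 7.72. Hba-x, Hbb-y, Gata1 and Hemgn were not detected on 3 arrays, and the erythroid anion exchanger Slc4a1 was not detected on any.

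Between genotypes no solute carrier passed in anterior tissue (0.503% of all genes did) or in posterior tissue (0% did). At an unadjusted p under 0.05 there were 15 in anterior tissue (7.61%, against 9.07% of all genes) and 19 in posterior tissue (9.64%, against 9.92%). On the mean of both regions 2 genes were lower in knockout arrays and none higher, 1.02% against 0.512% of all genes that passed in either direction and 0.261% that were lower. Across the 197 genes the anterior and posterior genotype changes correlated with r = 0.32, against 0.24 over all genes, over separate arrays of 1 platform.

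Slc1a3 (GLAST), a glutamate carrier of neural progenitors and glia, was lower in knockout arrays of both regions. It read 9.38, 9.39 and 9.55 in control anterior against 8.80, 8.96 and 8.76 in knockout anterior arrays, and 9.05, 8.94 and 9.02 in control posterior against 8.52, 8.16 and 8.52 in knockout posterior arrays. The genotypes did not overlap in either region. The change on the mean of both regions was -0.60 (SE 0.09, adjusted p = 0.015), or 1.52-fold. Within the anterior it was -0.60 (adjusted p = 0.082) and within the posterior -0.60 (adjusted p = 0.21), and neither passed alone. The call of Slc1a3 was lost without control anterior replicate 2 (0.053). Its change along the axis was -0.44 in control and -0.44 in knockout arrays (adjusted p = 0.083 and 0.061).

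Slc16a3 (MCT4), which exports lactate from glycolytic cells and is a known target of hypoxia-inducible factor, was lower in knockout arrays at the edge of the threshold. It read 6.33, 6.25 and 5.92 in control anterior against 5.77, 5.71 and 5.62 in knockout anterior arrays, and 6.30, 5.77 and 5.90 in control posterior against 5.45, 5.14 and 4.85 in knockout posterior arrays, where 2 of 3 arrays detected it. The genotypes did not overlap in either region. The mean change was -0.65 (SE 0.13, adjusted p = 0.045), or 1.57-fold with the undetected array at its measured value. It was -0.46 in the anterior (adjusted p = 0.47) and -0.84 in the posterior (adjusted p = 0.19). The call of Slc16a3 was lost without 10 of 12 single arrays, all but control anterior replicate 3 and knockout posterior replicate 1 (0.064 to 0.15). It was also lost under 7 of 11 other ways of processing. Among these were the deposited log2 values (-0.25, adjusted p = 0.076), uncorrected background (-0.25, 0.076) and cyclic loess (-0.51, 0.077). The count of 2 became 0 without control anterior 2, and 1 without control anterior 1, any control posterior array, knockout anterior 1 or 3, or knockout posterior 2 or 3.

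Markers of the epiblast moved with genotype beside these genes. Of 5 tested anterior epiblast genes of 6 listed, 4 were lower in knockout arrays on the mean of both regions: Otx2 changed by -1.77 (adjusted p = 0.045), Sox2 by -1.10 (0.031), Pou3f1 by -0.97 (0.0057) and Lhx5 by -0.71 (0.029). Their summed linear level was 3490 to 4260 in control and 1710 to 2010 in knockout anterior arrays, and 645 to 801 against 206 to 404 in posterior arrays. Of 5 general epiblast genes Fgf5, a growth factor of the epiblast, passed (-1.18, adjusted p = 0.043), with sums of 23500 to 26700 against 19800 to 20700 in the anterior and 25000 to 26200 against 16200 to 21000 in the posterior. Of 5 posterior and streak genes Tbx6 was higher (0.77, adjusted p = 0.015), with sums of 821 to 1000.0 against 1430 to 1940 and 11800 to 12800 against 12100 to 13600. No gene of the visceral endoderm, definitive endoderm, blood, trophoblast or mesoderm lists passed between genotypes. The part of these markers in the changes of Slc1a3 and Slc16a3 was not tested.

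**Figure D3:**
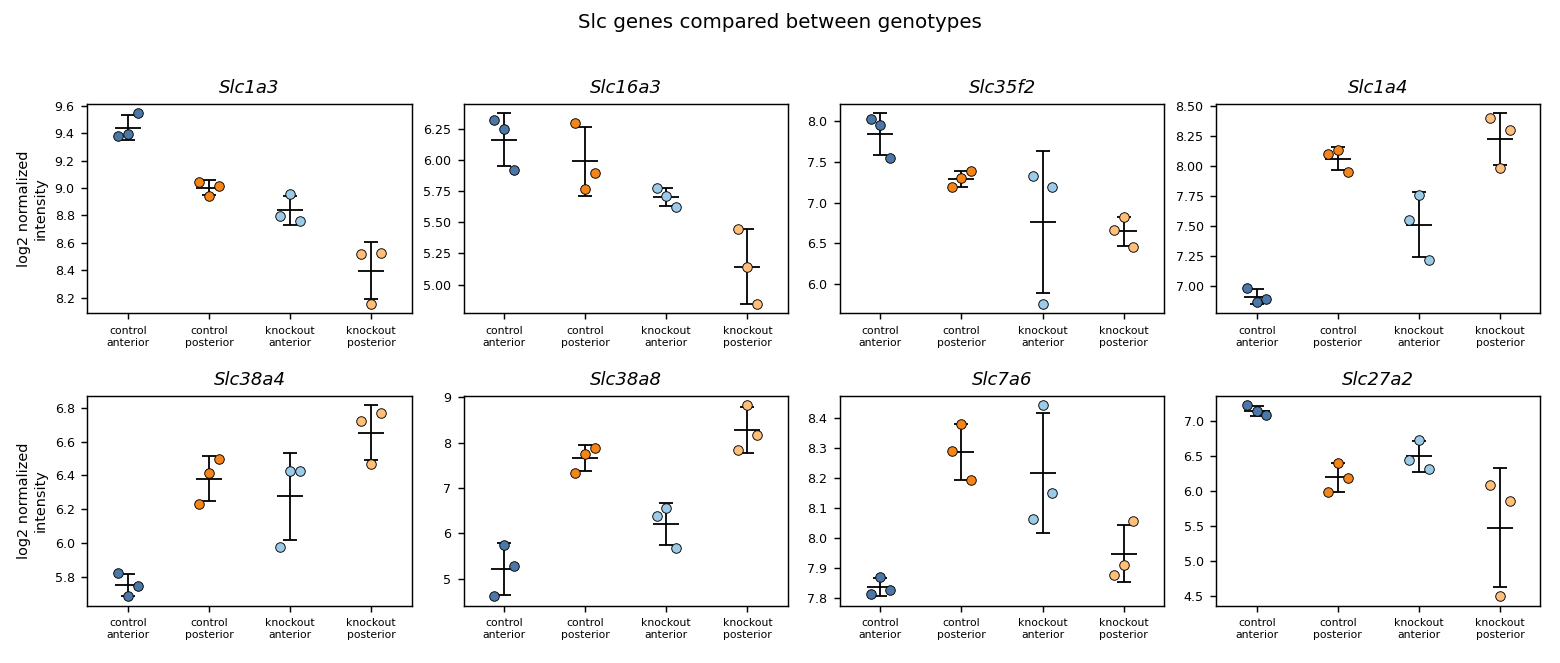
Levels (log2 normalized intensity) of 8 solute carriers in the 12 arrays, with points for arrays and the mean and SD of 3 arrays as mark and bar. Slc1a3 and Slc16a3 passed on the mean of both regions (-0.60 and -0.65), and the other 6 did not pass between genotypes. The vertical scales differ.

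The genes with the next smallest p between genotypes did not pass. Slc35f2 read 8.03, 7.95 and 7.55 in control anterior against 7.33, 5.76 and 7.19 in knockout anterior arrays, a change of -1.08 (SE 0.32, adjusted p = 0.24), with knockout anterior replicate 2 lowest. Without that array the change of Slc35f2 was -0.58 (adjusted p = 0.29). In anterior tissue Slc38a8 changed by 0.99 (SE 0.32, adjusted p = 0.32), Slc1a4 by 0.60 (SE 0.16, adjusted p = 0.16) and Slc38a4 by 0.52 (adjusted p = 0.23). For Slc1a4 and Slc38a4 the knockout anterior arrays all lay above the control anterior ones, and for Slc38a8 the ranges overlapped, since 5.68 in knockout fell below 5.75 in control. Arrays did not overlap between genotypes in anterior tissue for 27 of the 197 genes (13.7%, against 14.1% of all genes), and in posterior tissue for 27 (13.7%, against 15.6%).

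In posterior tissue Slc35d3 changed by -0.73 (SE 0.19, adjusted p = 0.27). Slc22a17, a receptor for the siderophore-binding protein lipocalin-2, read 5.32, 5.52 and 5.44 in control tissue against 5.60, 6.60 and 6.04 in knockout tissue, a change of 0.65 (adjusted p = 0.36) that was 0.39 without knockout posterior replicate 2. Slc27a6 was detected on all 3 control posterior arrays and on none of the 3 knockout posterior arrays. It read 5.14, 5.20 and 4.93 against 4.50, 4.81 and 4.56 and was at least 1.08-fold lower by the group means (adjusted p = 0.36). That bound is set by the lowest signal detected on each dim array and takes no account of the spread among arrays.

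**Figure D4:**
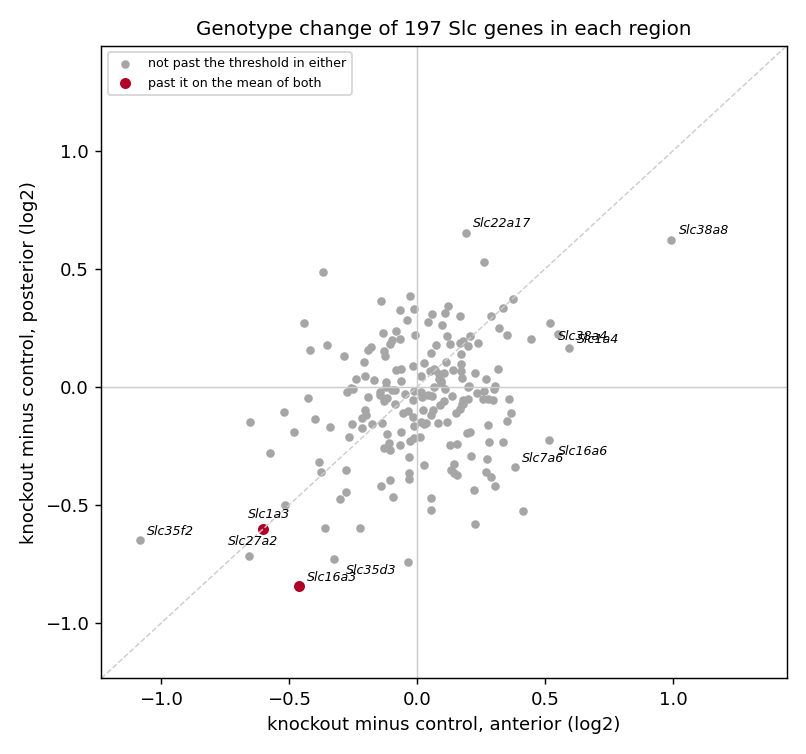
Knockout minus control change (log2) of 197 solute carriers in anterior (horizontal axis) and posterior tissue (vertical axis), 1 point per gene. None passed within a region, and the red points, Slc1a3 and Slc16a3, passed on the mean of both. The dashed line marks equal change.

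The test of whether the genotype change differed between regions called no solute carrier, against 0.00899% of all genes, which is 1 gene. At an unadjusted p under 0.05 there were 8 (4.06%, against 6.16% of all genes). The smallest p belonged to Slc7a6, a light chain that with Slc3a2 exchanges cationic for neutral amino acids. In control tissue it read 7.81, 7.87 and 7.83 in the anterior and 8.29, 8.38 and 8.19 in the posterior. In knockout tissue it read 8.063, 8.443 and 8.15 in the anterior and 7.88, 7.91 and 8.057 in the posterior. The posterior arrays lay above the anterior ones in control tissue and just below them in knockout tissue. The difference of the changes was -0.72 (SE 0.18, adjusted p = 0.41). The next were Slc16a6 (-0.74), Slc38a10 (-0.53), Slc18b1 (-0.57) and Slc5a7 (-0.66), each with an adjusted p of 0.74 or 0.75.

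Carriers of glucose and of mitochondrial substrates did not pass in any comparison. The glucose carrier Slc2a1 (GLUT1) read between 13.05 and 13.89 and Slc2a3 (GLUT3) between 13.44 and 13.99 over the 12 arrays. Their control regional changes were -0.19 (SE 0.16) and -0.02 (SE 0.15), and their anterior genotype changes 0.01 and 0.14, all with adjusted p of 0.63 or more. The lactate carrier Slc16a1 was not detected on 3 arrays, and Slc7a5, Slc46a1 and Slc35d1 are not analysed here. Of the 31 tested mitochondrial carriers (Slc25) of 43 named, none passed in any of the 6 comparisons. Of all genes 4.98% and 7.87% passed along the control and knockout axis and at most 0.512% in the other comparisons, so a count of 0 among 31 genes lies near the background. Within that family, control regional changes ran from -0.59 to 0.47 around a median of 0.01. The ADP/ATP carrier Slc25a5 changed by 0.34 and 0.27 along the axis in control and knockout arrays (adjusted p = 0.16 and 0.22), and Slc25a4 changed by -0.59 and -0.53 (adjusted p = 0.25 and 0.22). The knockout change of Slc25a4 was -0.25 when posterior replicate 2 was left out, and it was -0.87 and passed (adjusted p = 0.022) when posterior replicate 3 was.

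Of 22 tested metal and heme carriers, Slc48a1 in control and Slc39a6 in knockout embryos passed along the axis. Of all genes 4.98% and 7.87% passed there. The zinc importer Slc39a8 read 8.04, 6.90 and 8.47 in knockout anterior against 8.57, 8.76 and 8.03 in control anterior arrays (change -0.65, adjusted p = 0.58). Without the low knockout anterior replicate 2 the change of Slc39a8 was -0.20, without replicate 3 it was -0.99, and its second probe, detected on 7 arrays, changed by 0.49. Slc39a10 changed by 0.37 between genotypes in each region (adjusted p = 0.66 and 0.58), and the zinc exporter Slc30a1 by 0.16 and -0.24. The iron importer Slc11a2 changed by 0.29 and 0.30 between genotypes (adjusted p = 0.64 and 0.56), and the iron exporter Slc40a1 by -0.14 and -0.02.

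The nucleoside carrier Slc29a1 changed by 0.48 in control and 0.43 in knockout arrays along the axis (adjusted p = 0.11 and 0.11), and its second probe, detected on all 12 arrays, by 0.75 and 0.73. The folate carrier Slc19a1 changed by 0.12 and -0.01. Of the 20 tested genes of the inorganic ion group, Slc8a1 rose in control and the scaffold gene Slc9a3r2, not a carrier, fell in knockout embryos. Of all genes 2.69% rose along the control and 4.31% fell along the knockout axis. The chloride importer Slc12a2 changed by -0.25 and -0.41 along the axis (adjusted p = 0.47 and 0.13). Of the 19 tested nucleotide sugar carriers Slc35d3 was the 1 that passed, against 4.98% of all genes along the control and 7.87% along the knockout axis. Over the 197 genes the median regional change was 0.01 in control and -0.02 in knockout embryos, and the medians over all genes were 0.01 and -0.01.

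**Figure D5:**
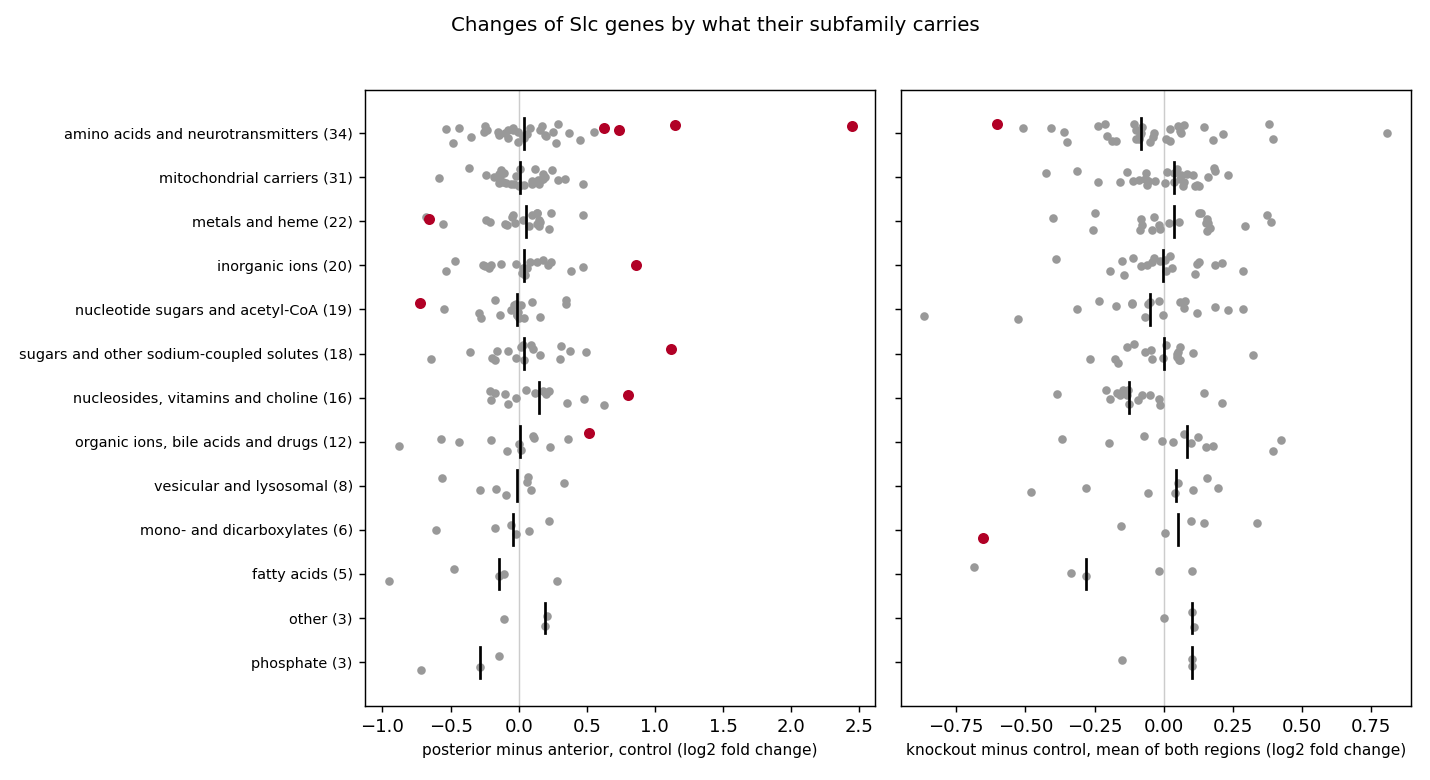
Log2 changes of solute carriers by what their subfamily carries, with the number tested in brackets: posterior minus anterior in control embryos (left) and knockout minus control on the mean of both regions (right). Each point is a gene, red points passed the adjusted threshold and black bars are group medians. In control embryos 4 of the 34 amino acid and neurotransmitter genes passed and 0 of the 31 mitochondrial carriers, against 4.98% of all genes, and the difference between groups was not tested.

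Fewer solute carriers were detected on all 3 knockout posterior arrays than on all 3 arrays of any other group. Of the 197 genes, 135 (68.5%) were detected on all 12 arrays, against 73.2% of all genes, and 62 on 3 to 11. All 3 arrays of the group detected 161 genes in the anterior and 159 in the posterior of control embryos, and 160 and 142 in the knockout groups. The knockout posterior group holds the arrays with the fewest solute carriers detected, replicate 2 with 155 and replicate 3 with 160. These 2 arrays also detected the fewest of all probes, 36.2% and 39.1%, against 39.2% to 42.3% on the others. Knockout anterior replicate 2, with 39.2% of probes, detected 171 solute carriers. Whether the lower count was particular to solute carriers was not tested. Slc6a19 was detected on all control posterior and no control anterior arrays (at least 1.19-fold higher by the group means, adjusted p = 0.41), although the arrays of the regions overlapped (4.911 in anterior against 4.881 in posterior). Slc37a4 was detected on all knockout anterior and no knockout posterior arrays (at least 1.27-fold lower, adjusted p = 0.057), and so was Slc27a6 (at least 1.12-fold lower, adjusted p = 0.0503). These 3 genes were picked after their values were seen, none passed, and their folds take no account of the spread among arrays. Of the 135 named genes that were not compared, 88 were detected on no array and 47 on 1 or 2, and the subfamilies Slc14 (urea), Slc33 (acetyl-CoA) and Slc41 (magnesium) had no gene compared.

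Genes that work beside the solute carriers were taken from a list of 36, of which 24 were compared. The list holds other transporters and pumps, and also ferritin chains, metallothioneins and glycolytic enzymes. Along the control axis 2 rose and 1 fell (of all genes 2.69% and 2.29%), and in knockout embryos none rose and 2 fell (3.56% and 4.31%). Between genotypes 1 of the 24 was higher in anterior tissue and on the mean of both regions (0.324% and 0.252% of all genes), and it was Rhbg. Rhbg, an ammonium transporter, had control means of 4.74 in the anterior (detected on 1 of 3 arrays) and 6.58 in the posterior, and knockout means of 6.13 and 6.53. Its genotype change was 1.38 in anterior tissue (adjusted p = 0.00029) and 0.67 on the mean (adjusted p = 0.0057). It was the 1 gene of all 11124 whose genotype change differed between regions (-1.44, SE 0.16, adjusted p = 0.01). Slco3a1, an organic anion transporter, rose by 0.58 in control embryos (adjusted p = 0.015). Mt2, which binds zinc and copper, changed by -0.82 and -0.81 along the axis (adjusted p = 0.021 and 0.02), and the sodium pump subunit Atp1b2 by -0.77 in knockout embryos (adjusted p = 0.025).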

How the data were processed

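Per the file headers, the authors deposited probe signal intensity for 46237 probes on 12 arrays, not normalized, with a detection p-value beside each value. Per the submitters' processing notes, GenomeStudio was used. The deposited log2 values of the series matrix served as an alternative. The neqc function corrected the background, quantile normalized the intensities and took log2 (limma 3.58.1, R 4.3.3, offset 16, 936 negative controls implied by the p-values). Probes with detection p under 0.05 on at least 3 arrays were kept, and names were updated through RefSeq (GRCm38.p6). 4 group means were fitted to 11124 genes with limma, with Benjamini-Hochberg adjustment over all of them. On simulated data with 11124 genes for the control axis, 79 of 100 genes changed by 1 (log2) and 21 of 100 changed by 0.5 were recovered. Of the 108 genes called there, 8 were unchanged. The simulated noise was independent between arrays, with 1 SD per gene and no weak array, so recovery with arrays of unequal quality was not measured.

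The labels do not say that arrays came from separate embryos, and p-values therefore cover no more than the spread among these samples, which may be technical, and the number of arrays limits the precision. The genes and lists were chosen with earlier results of these data known. Genes named are, in each comparison, up to 12 rises and 12 falls that passed, the 5 of smallest p where fewer than 5 passed, and members fixed for their role.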

Additional observations from a re-analysis of the deposited data

How the results depend on the processing

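The numbers of solute carriers that passed (0 between genotypes in anterior tissue, 2 on the mean of both regions, 10 along the control and 13 along the knockout axis) moved with the processing, and the cause was not tested. In anterior tissue the count became 1 under each of cyclic loess, an offset of 50, the series matrix, uncorrected background, and trended and robust variances, and 9 with array weights. On the mean of both regions it became 0 under either median scaling, 1 without the detection filter or with trended and robust variances, and 11 with array weights. Along the control axis it became 1 under median scaling over all probes, 17 when fitted on the compared groups alone and 34 with array weights. Along the knockout axis it became 6 under median scaling over probes detected on all arrays, 0 over all probes and 3 on the compared groups alone. Leaving out single arrays gave 0 to 1 in anterior tissue, 0 to 3 on the mean, 4 to 15 along the control axis and 4 to 15 along the knockout axis. In posterior tissue and for the difference between regions the count was 0 in every setting run.

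The labels do not state that equal replicate numbers mark shared embryos, so the numbers were not taken as pairs. Deviations from the group means of same-numbered anterior and posterior arrays correlated at 0.055, 0.21 and 0.22 in control tissue. In knockout tissue they correlated at -0.03, -0.11 and 0.05. Control arrays of different numbers ran from -0.26 to 0.15 between the regions. These values do not settle whether the control arrays were paired. With the replicate number as a replicate block the counts were 0, 2, 8 and 11. With genotype and number as the block they were 6 along the control and 8 along the knockout axis.

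Median scaling over all probes shifted the median of all genes by -0.22 in anterior and -0.68 in posterior tissue between genotypes and by -0.52 along the knockout axis. It turned the knockout axis changes of Slc23a3 (-0.155), Slc22a18 (-0.107) and Slc39a6 (-0.203). Of 4109 values of single named genes under alternatives, 54 gained a call, 196 lost a call and 3 that had passed reversed in sign. Only genes that had passed could lose a call or count as reversed, so neither count is a share of all 4109. Sign changes of genes that had not passed were not counted, such as Slc25a4 between genotypes in posterior tissue (-0.551 to 0.465). Slc38a8 passed along the control axis under all alternatives. Dim probes limit the rest: knockout posterior replicate 2 detected 36.2% of probes.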
